A study of Homo sapiens with 22 samples.

Results

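Neuronal and synaptic genes that the repressor REST is known to hold silent outside neurons were followed through 22 RNA-seq libraries labelled as a breast cancer line. The markers of some libraries go against that label, as given below. The set holds 34 of the 26485 gene symbols counted, picked by symbol for their neuronal roles, and REST and its corepressor RCOR1 were set apart from it. All 36 symbols were found in every library.

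All libraries are labelled MDA-MB231, a long-established human line of triple-negative breast cancer cells, grown in DMEM with fetal bovine serum. The Nexturastat A group (2 libraries) received this HDAC6 inhibitor at 7.65 µM for 2 days, and its control group, Ctrl (2 libraries), was also taken at day 2 and is labelled as DMSO-treated. HPOB and Tubastatin A, further HDAC6 inhibitors, were each given to a group of 3 libraries beside 3 DMSO libraries, all taken at day 2. The sources used here give no doses for them, and the Tubastatin A titles carry the letters TSA, so the treatment label was followed. The hairpin groups shHDAC6-1 and shHDAC6-2, which target HDAC6, and their control shCtrl had 3 libraries each, taken at day 0. HDAC6 is a mainly cytoplasmic deacetylase. Nothing in the labels says that replicates came from separate cultures, so p-values measure only the spread between these libraries.

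REST binds a sequence called RE1 near neuronal genes and recruits complexes that hold histone deacetylases, among them one built on RCOR1 (CoREST). Its targets encode the vesicle release machinery, neurosecretory granule proteins, neurofilaments, ion channels and adhesion molecules of neurons. REST falls during neuronal differentiation, and in epithelial cells these genes are normally silent or low.

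The RE1 motif was searched for in RefSeq promoter windows (GRCh38.p14, from 250 bases before to 50 after the start), because the set is defined by a factor with a known site. The motif was written as 2 parts, TTCAGCACC and GGACAG, lying 2 bases apart, on either strand, with at least 13 of 15 bases matching. Of the 34 genes, 23 had a window, and only that of SYN1, which encodes a synaptic vesicle phosphoprotein, held such a site, against 66 of all 35116 promoters searched (0.188%). In the further list of 30 REST target genes, windows of 21 were found and those of GRIA2, VGF and CDK5R1 held a site. These 4 are printed because they carry the letters that REST is known to bind, with the site in capitals. The SYN1 run is chrX:47620014-47620107 on the minus strand, the GRIA2 run chr4:157220369-157220468 on the plus strand, the VGF run chr7:101165553-101165581 on the minus strand and the CDK5R1 run chr17:32486972-32487000 on the plus strand. No match says only that these letters are not in these windows.
SYN1: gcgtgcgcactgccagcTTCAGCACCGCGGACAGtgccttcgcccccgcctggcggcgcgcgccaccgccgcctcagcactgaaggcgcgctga
GRIA2: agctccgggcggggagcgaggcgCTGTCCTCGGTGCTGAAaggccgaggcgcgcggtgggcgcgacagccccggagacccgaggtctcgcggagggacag
VGF: cgggcgCTGTCCAGCGTGCTGAAgccgga
CDK5R1: ggtgccTGCAGAACCTTGGACAGaagctc

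Libraries held between 31238740 and 85942315 counts, and levels are counts scaled to the library total (CPM). Several libraries stood apart from their groups or labels. Knockdown replicates 1 and 2, shCtrl included, correlated with Ctrl at 0.904 to 0.912 (Pearson r of log2(CPM + 1) across genes), against 0.988 to 0.991 for shCtrl replicate 3. They held CDKN2A, a gene deleted in MDA-MB-231, at 140.0 to 184 CPM, whereas it was at 0 in shCtrl replicate 3 and in both Ctrl libraries. IRS4 stood at 337 to 679 CPM in knockdown replicates 1 and 2 and at 0 in Ctrl. The 4 mesenchymal markers summed to 835 to 911 CPM in knockdown replicates 1 and 2, against 4010 to 4420 CPM in Ctrl. The 2 hairpin libraries of replicate 3 also stood apart. Their correlation was 0.904 to 0.905 with Ctrl and 0.908 to 0.909 with shCtrl replicate 3. They held CDKN2A at 7.11 CPM (shHDAC6-1) and 24.1 CPM (shHDAC6-2). Replicates 1 and 2 and replicate 3 of the knockdown experiment were therefore kept apart. HPOB replicate 3 and Tubastatin A replicate 2 correlated with each other at 0.998 and with their own groups at 0.995 to 0.996. HPOB replicate 2 stood at the same 0.995 to 0.996 with the other HPOB libraries.

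**Figure D1:**
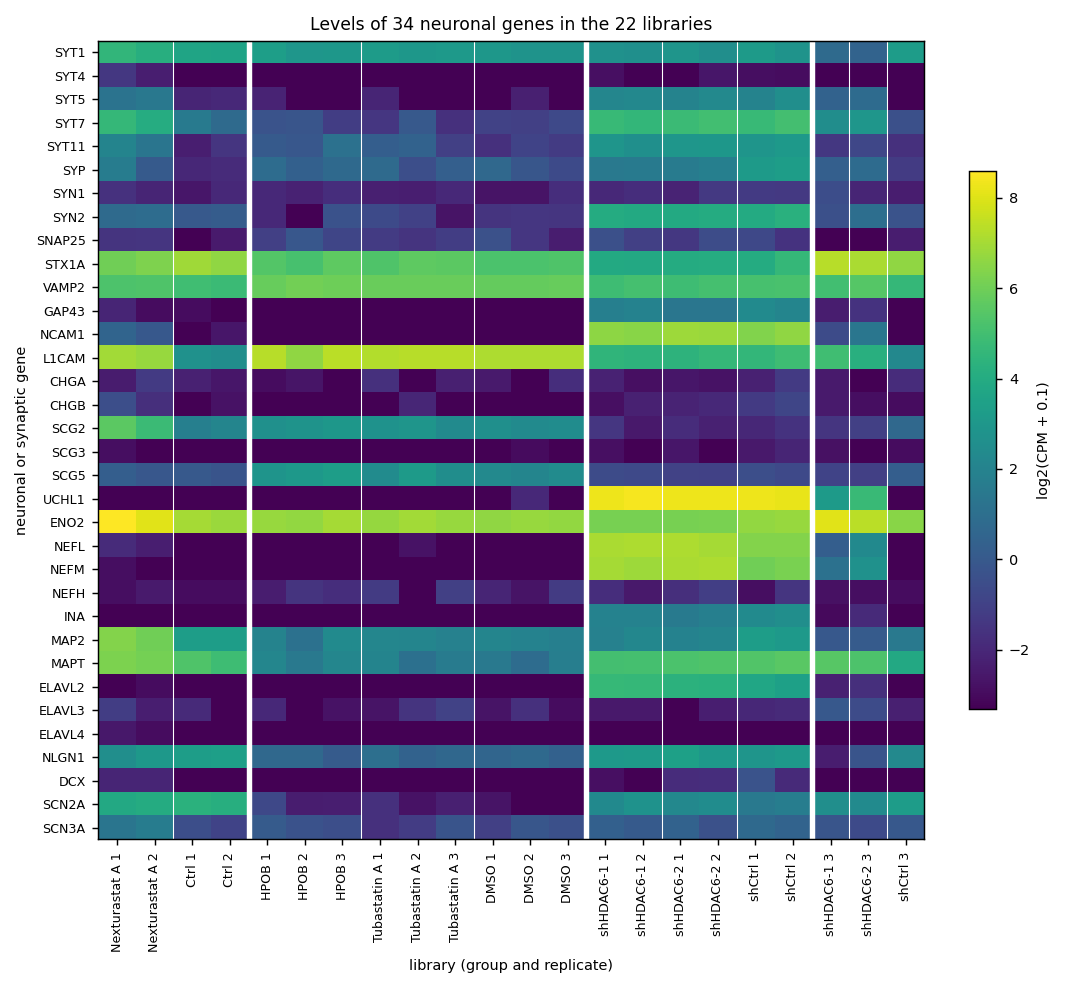
Each row is 1 of the 34 neuronal genes and each column 1 library, with colour giving log2(CPM + 0.1). UCHL1, NCAM1, NEFL and NEFM are bright in knockdown replicates 1 and 2, where UCHL1 reached 293 to 349 CPM, and dark in Ctrl and DMSO, and L1CAM is bright in Nexturastat A and in all HPOB, Tubastatin A and DMSO libraries but dimmer in Ctrl.

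A gene was called silent below a mean of 0.1 CPM, low from there to 1 CPM, and expressed at 1 CPM or more. In Nexturastat A cells 8 of the 34 genes were silent, 9 low and 17 expressed, against 16 silent, 7 low and 11 expressed in Ctrl. Over all symbols, 32.7% were silent in Nexturastat A and 40.1% in Ctrl, and 52.7% and 49.0% were expressed, so a shift upward was not limited to this set. Relative to Ctrl, 13 neuronal genes stood in a higher class with Nexturastat A and 0 in a lower one. Class changes of single genes were not counted over all symbols. The genes that newly reached 1 CPM were SYT5, SYT11, SYP, SYN2, NCAM1 and SCN3A. UCHL1, a neuronal deubiquitinating enzyme, and INA, the neuronal intermediate filament internexin, had 0 counts in both groups, so a level of up to 0.0256 CPM remains possible in Nexturastat A.

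Of the 34 neuronal genes, 20 passed the filter on low counts, of which 13 were higher, 1 was lower and 6 were not called (edgeR quasi-likelihood test, Benjamini-Hochberg adjusted p below 0.05). Over all 16678 genes tested, 21.1% were called higher and 15.5% lower. The median log2 fold change was 2.36 over the 20 neuronal genes and 0.03 over all genes. A gene that passed the filter only through its level with Nexturastat A had to differ, so the count describes the 20 and not the 34. Without Ctrl replicate 2, 25 were tested, of which 9 were higher and 0 lower, and without Ctrl replicate 1, 25 were tested, of which 10 were higher and 0 lower.

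Among the synaptotagmins, the calcium sensors of vesicle release, 4 rose. SYT7 had 24.3 and 16.4 CPM with Nexturastat A, against 2.81 and 1.66 CPM in Ctrl, a log2 fold change of 3.10 ± 0.32 (SE, adjusted p 0.00133). SYT11 had 4.0 and 2.39 CPM with Nexturastat A, against 0.0997 and 0.260 CPM in Ctrl (4.04 ± 0.53, adjusted p 0.00278). SYT5 had 2.19 and 2.65 CPM with Nexturastat A, against 0.133 and 0.163 CPM in Ctrl (3.92 ± 0.42, adjusted p 0.00149). In these 3 genes the groups were separated by a wide gap. SYT1, the fast sensor, was expressed without treatment and moved less, with 23.0 and 17.9 CPM against 12.3 and 12.1 CPM in Ctrl (0.65 ± 0.18, adjusted p 0.0305). Its adjusted p reached 0.218 when either Ctrl library was left out in turn. SYT4 had 22 counts in all with Nexturastat A and 0 in Ctrl and was not tested.

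Proteins of the vesicle membrane and the fusion machinery did not move together. SYP, which encodes the vesicle protein synaptophysin, had 3.15 and 0.943 CPM with Nexturastat A, against 0.149 and 0.179 CPM in Ctrl (log2 fold change 3.53 ± 0.68, adjusted p 0.00878, edgeR), and lost its call without either Ctrl library (adjusted p up to 0.0623). STX1A, a plasma membrane SNARE, fell to 65.1 and 78.3 CPM, against 117 and 97.1 CPM in Ctrl (-0.67 ± 0.15, adjusted p 0.0156). It was the 1 gene of the set called lower, and without either Ctrl library it lost that call (adjusted p up to 0.163). SYN2, a synapsin, had 1.62 and 1.77 CPM with Nexturastat A, against 0.914 and 1.01 CPM in Ctrl, and was not called (adjusted p 0.127). The SNARE genes SNAP25 (0.241 and 0.253 CPM with Nexturastat A, 0 and 0.0812 CPM in Ctrl) and VAMP2 (38.6 and 39.8 CPM, 30.8 and 27.8 CPM in Ctrl) were not called either, with adjusted p of 0.0956 and 0.0991. SYN1, the gene with the exact site, stayed low at 0.224 and 0.135 CPM with Nexturastat A and 0.0664 and 0.163 CPM in Ctrl, and the groups overlapped.

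The adhesion genes gave the largest values. L1CAM, a cell adhesion molecule of growing axons, had 123 and 109 CPM with Nexturastat A, against 6.48 and 5.57 CPM in Ctrl, a log2 fold change of 4.18 ± 0.16 (adjusted p 0.000192, edgeR). NCAM1, the neural cell adhesion molecule, had 1.34 and 0.876 CPM with Nexturastat A, against 0 and 0.0650 CPM in Ctrl (4.91 ± 0.87, adjusted p 0.00654). NLGN1, a postsynaptic adhesion protein, had 5.88 and 7.97 CPM with Nexturastat A and 9.87 and 10.6 CPM in Ctrl, with no overlap, and was not called (adjusted p 0.0586). NCAM1 shares exons with an antisense gene and no source used here gives the strand setting of the counting, so reads of the pair cannot be told apart. In all, 9 of the 36 genes overlap exons of a gene on the other strand, among them SYT1, SYP, SYN1, NEFL, NEFM, SCN3A and REST.

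Neurosecretory granule genes were split. SCG2, a granin, had 48.5 and 27.5 CPM with Nexturastat A, against 3.46 and 4.24 CPM in Ctrl (log2 fold change 3.21 ± 0.30, adjusted p 0.000996, edgeR). CHGB, another granin, rose on few reads, with 48 counts with Nexturastat A against 3 in Ctrl, a ratio of 16.6 (95% counting interval 5.35 to 83.3), with adjusted p of 0.0313. It lost its call without either Ctrl library or without Nexturastat A replicate 1 (adjusted p up to 0.181). SCG5, a granule chaperone, stood at 1.09 and 0.842 CPM with Nexturastat A and 0.914 and 0.747 CPM in Ctrl and was not called. CHGA and SCG3 were below the filter. Low counts were mostly even numbers (65.7% to 75% of them per library), so counting intervals and floors here cover counting error only and are too narrow.

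Cytoskeletal and enzyme genes already expressed in Ctrl rose further. MAP2, a dendritic microtubule protein, had 82.7 and 63.7 CPM with Nexturastat A, against 9.97 and 9.81 CPM in Ctrl (log2 fold change 2.80 ± 0.17, adjusted p 0.000354, edgeR). ENO2, the neuronal enolase, had 387 and 268 CPM with Nexturastat A, against 128 and 110.4 CPM in Ctrl (1.37 ± 0.19, adjusted p 0.00321). MAPT, which encodes tau, had 74.8 and 68.3 CPM with Nexturastat A, against 39.5 and 29.6 CPM in Ctrl (0.96 ± 0.17, adjusted p 0.00631). MAPT was not called without Ctrl replicate 2 (adjusted p 0.0776). The neurofilament genes NEFL, NEFM and NEFH and DCX, a microtubule protein of migrating neurons, reached at most 0.172 CPM in any Nexturastat A or Ctrl library and were not tested.

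Of the sodium channel genes, SCN3A had 2.35 and 3.08 CPM with Nexturastat A, against 0.631 and 0.422 CPM in Ctrl (log2 fold change 2.27 ± 0.38, adjusted p 0.00546, edgeR). SCN2A was expressed in both groups, with 14.7 and 15.8 CPM with Nexturastat A and 19.6 and 17.5 CPM in Ctrl, and was not called (adjusted p 0.118). The 14 genes below the filter had at most 26 counts each over both Nexturastat A libraries and 14 over both Ctrl libraries. Their counts summed to 153 with Nexturastat A and 41 in Ctrl. Besides those named, they include GAP43, a growth cone protein, and the neuronal RNA-binding genes ELAVL2, ELAVL3 and ELAVL4.

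**Figure D2:**
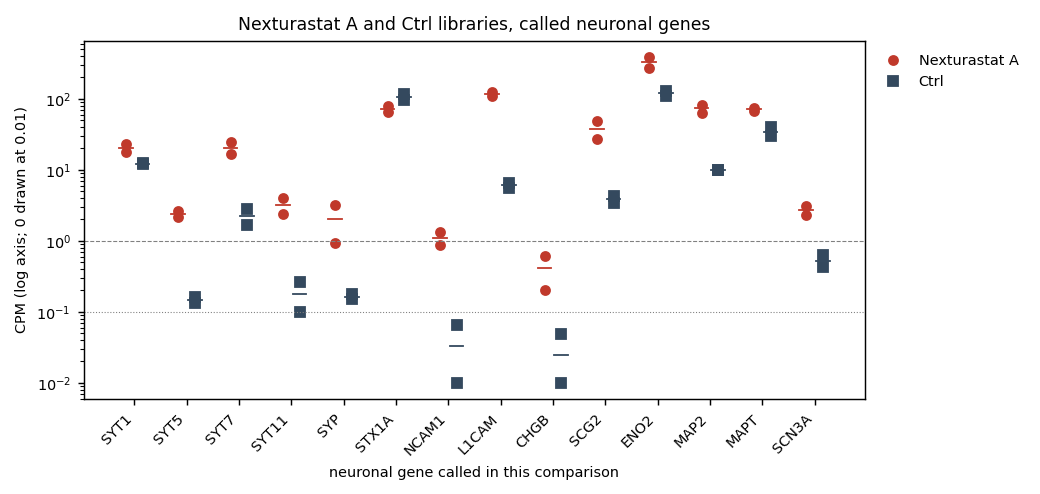
Points are single libraries of the 14 called genes on a log axis of CPM, Nexturastat A left of Ctrl for each gene, with bars at the group means and dashed and dotted lines at 1 and 0.1 CPM. The genes were chosen by their call, so groups that do not overlap in each of them are no further support. Overlap was not counted over all genes. L1CAM shows 123 and 109 CPM with Nexturastat A against 6.48 and 5.57 CPM in Ctrl.

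REST itself was not called. It had 58.8 and 52.0 CPM with Nexturastat A and 64.5 and 66.0 CPM in Ctrl (log2 fold change -0.33 ± 0.13, adjusted p 0.0839, edgeR). RCOR1 fell to 64.0 and 65.6 CPM with Nexturastat A, against 79.7 and 79.5 CPM in Ctrl (-0.39 ± 0.12, adjusted p 0.0406). That call was lost under 6 alternatives, among them leaving out either Ctrl library, with adjusted p up to 0.279. Of 24 corepressor and regulator genes, all tested, 10 were lower and 1 was higher, where 15.5% of all genes were called lower and 21.1% higher, and their median log2 fold change was -0.24. The lower ones included ZMYM3, a zinc finger protein of the CoREST complex (57.2 CPM with Nexturastat A, 98.8 CPM in Ctrl), and EHMT2, a histone methyltransferase (56.5 CPM with Nexturastat A, 92.2 CPM in Ctrl). SRRM4, a neuronal splicing factor that acts on REST transcripts, had 54 counts with Nexturastat A and 0 in Ctrl, at least 18.7-fold higher. It passed the filter only through its level with Nexturastat A, so it had to differ.

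Of 30 other genes known as REST targets, 22 were tested, 17 were higher and 0 lower, with a median log2 fold change of 2.24. Over all genes tested, 21.1% were called higher and 15.5% lower. Genes that passed the filter only through their level with Nexturastat A had to differ. Of the 22, 3 at 0 in Ctrl were among them, and genes with few Ctrl counts can be too. The count and the median of this list therefore describe the 22 and not the 30. The median was also 2.24 with genes at 0 in Ctrl set to their bounds. UNC13A, a vesicle priming factor, averaged 12.2 CPM with Nexturastat A and 0.280 CPM in Ctrl (5.35 ± 0.27, adjusted p 0.000232, edgeR). OLFM1, a secreted neuronal glycoprotein, had 49 counts with Nexturastat A and 0 in Ctrl, at least 16.9-fold higher over a floor of 3 counts in Ctrl. GRIN2A, an NMDA receptor subunit, had 28 counts with Nexturastat A and 0 in Ctrl, at least 9.68-fold higher. VGF, a neurosecretory protein gene whose window holds a site, had 33.03 and 22.5 CPM with Nexturastat A, against 4.55 and 3.18 CPM in Ctrl (2.75 ± 0.27, adjusted p 0.00115). CDK5R1, an activator of the kinase CDK5, had 7.72 and 7.68 CPM with Nexturastat A, against 4.02 and 3.899 CPM in Ctrl (0.87 ± 0.21, adjusted p 0.0180). GRIA2, an AMPA receptor subunit with an exact site, stayed under 0.12 CPM in all 4 libraries.

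Of 14 widely expressed paralogs of the neuronal genes, all tested, 1 was higher and 3 lower, where 21.1% of all genes were called higher and 15.5% lower, with a median log2 fold change of -0.09. STX3, the relative of STX1A, averaged 59.0 CPM with Nexturastat A and 24.0 CPM in Ctrl (1.20 ± 0.14, adjusted p 0.00209, edgeR), opposite in sign to STX1A. VAMP8, beside VAMP2, and NLGN2, beside NLGN1, fell by 0.78 and 0.57 on the log2 scale (adjusted p 0.0215 and 0.0296).

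Markers of other cell types were summed in each library. Beside the calls given here, 21.1% of all genes tested were called higher with Nexturastat A and 15.5% lower. The 5 epithelial markers, 4 of them at 1 CPM or more in both groups, summed to 2250 to 2810 CPM with Nexturastat A and 1410 to 1470 CPM in Ctrl, and 2 of the 5 were called higher. The 4 mesenchymal markers, all at 1 CPM or more, summed to 3570 to 4230 CPM with Nexturastat A and 4010 to 4420 CPM in Ctrl, so the groups overlapped, and 0 of the 4 were called by edgeR (3 at an unadjusted p below 0.05). Of the 6 glial markers, 3 were at 1 CPM or more with Nexturastat A and 2 in Ctrl, where 2 were at 0, and they summed to 123 to 124 CPM with Nexturastat A and 141 to 164 CPM in Ctrl, and of the 4 tested 1 was higher and 1 lower. The 3 breast receptor genes, 1 of them at 1 CPM or more in both groups, summed to 38.3 to 49.3 CPM with Nexturastat A and 80.9 to 87.7 CPM in Ctrl, and of the 2 tested 1 was higher and 1 lower. The sum was nearly all ERBB2, the gene called lower, at 43.2 CPM with Nexturastat A and 84.2 CPM in Ctrl. ESR1 was called higher, on 43 counts with Nexturastat A and 8 in Ctrl, and passed the filter only through its level with Nexturastat A, so it had to differ. PGR, not tested, had 24 counts with Nexturastat A and 1 in Ctrl. The part of these markers in the neuronal result was not tested. In such bulk libraries, more cells that express a gene and more RNA per cell cannot be told apart.

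HPOB gave no change in the set that edgeR called. Of the 34 genes, 17 passed the filter against DMSO and 0 were called by edgeR, 2 had an unadjusted p below 0.05 and DESeq2 called 2. Over all 15338 genes edgeR called 0.0261%. The 2 genes were SYT11, with 0.934, 0.857 and 2.05 CPM under HPOB and 0.217, 0.428 and 0.320 CPM under DMSO (log2 fold change 1.99 ± 0.54, edgeR adjusted p 0.297), and SCG5, with 7.20, 8.201 and 9.70 CPM under HPOB and 4.75, 4.26 and 5.22 CPM under DMSO (0.82 ± 0.21, adjusted p 0.252). In both, the HPOB and DMSO libraries did not overlap, but these genes were picked by their p-value, so this is no further support. The median log2 fold change was 0.25 over the 17 genes and 0.01 over all genes. For 8 of the 17 the 95% interval lay below 1 on the log2 scale. DESeq2 called 120 genes in all, and 1588 had an unadjusted p below 0.05. By class, 15 of the 34 genes were silent, 7 low and 12 expressed under HPOB, and 16 silent, 8 low and 10 expressed under DMSO. Over all symbols, 38.3% were silent under HPOB and 38.6% under DMSO, and 49.6% and 49.3% were expressed. Relative to DMSO, 4 neuronal genes stood in a higher class with HPOB and 1 in a lower one. SYT11 and SYP newly reached 1 CPM.

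Tubastatin A gave no called change in the set. Of the same 17 genes, 0 were called by edgeR and by DESeq2, and 2 had an unadjusted p below 0.05. Over all genes the share called was 0%, with 757 of 15338 at an unadjusted p below 0.05 and 23 called by DESeq2. SYT11 had 1.08, 1.26 and 0.378 CPM under Tubastatin A, against 0.217, 0.428 and 0.320 CPM under DMSO, and these ranges overlapped (1.48 ± 0.55, adjusted p 0.857). SCG5 had 5.28, 8.89 and 5.72 CPM under Tubastatin A, against 4.75, 4.26 and 5.22 CPM under DMSO (0.48 ± 0.21, adjusted p 0.857). The median log2 fold change was 0.20 over the 17 genes and 0.01 over all genes, and for 11 of the 17 the interval lay below 1. By class, 13 genes were silent, 10 low and 11 expressed under Tubastatin A, where 38.2% of all symbols were silent and 49.6% expressed. Relative to DMSO, 4 neuronal genes stood in a higher class with Tubastatin A and 0 in a lower one, and SYP newly reached 1 CPM.

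For MAP2, which rose with Nexturastat A, the log2 fold change was -0.04 (95% interval -0.61 to 0.54) with HPOB and 0.10 (-0.47 to 0.67) with Tubastatin A. For SCG2 it was 0.34 (-0.03 to 0.71) with HPOB and 0.21 (-0.16 to 0.58) with Tubastatin A. L1CAM had 159, 99.5 and 165 CPM under HPOB, 150.0, 160.0 and 157 CPM under Tubastatin A and 142, 139 and 140.0 CPM under DMSO, so it was already high without an inhibitor. Tubastatin A against HPOB gave 0 called genes in the set (0% of all genes by edgeR, 481 at an unadjusted p below 0.05 overall and 0 in the set, and 0 by DESeq2).

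REST and RCOR1 were not called with either compound (adjusted p 0.522 to 0.864, edgeR). REST had 51.7, 52.6 and 38.6 CPM under HPOB, 51.8, 35.4 and 48.6 CPM under Tubastatin A and 55.0, 54.0 and 56.3 CPM under DMSO. The lowest REST values were from HPOB replicate 3 and Tubastatin A replicate 2, the pair that correlated with each other at 0.998. RCOR1 was lowest in the same libraries, at 63.1 CPM in HPOB replicate 3 and 62.2 CPM in Tubastatin A replicate 2, against 92.3 to 97.1 CPM under DMSO. With both libraries left out, an alternative added after the data were seen, 0 neuronal genes were called in either comparison.

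The difference between inhibitor effects was tested in 1 fit over these 5 groups. The effect of Nexturastat A exceeded that of HPOB for 6 of the 21 neuronal genes tested and fell below it for 2, where 9.81% of all genes were called higher and 7.69% lower. It exceeded that of Tubastatin A for 8 and fell below it for 1, against 10.6% and 8.46% of all genes. L1CAM, SCG2, MAP2, ENO2, SYT7 and SYP were called higher in both. The controls of the inhibitors differ in their starting levels, as given below, and the doses differ or are unknown, so stock, dose and compound cannot be told apart.

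**Figure D3:**
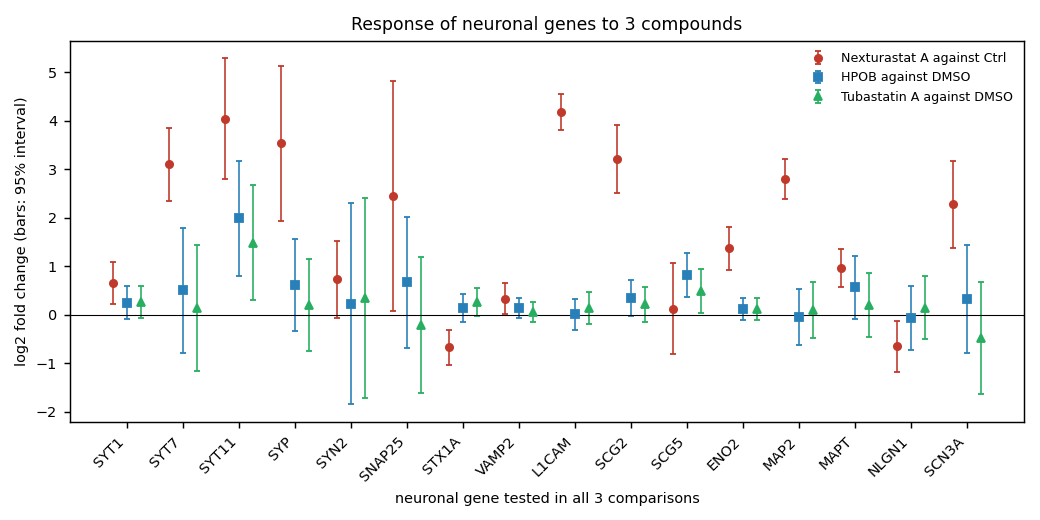
Log2 fold changes with 95% intervals of the 16 neuronal genes tested in all 3 comparisons, for Nexturastat A against Ctrl (circles), HPOB against DMSO (squares) and Tubastatin A against DMSO (triangles). Nexturastat A lies above both other compounds for L1CAM (4.18), SCG2 (3.21) and MAP2 (2.80), while the HPOB and Tubastatin A values lie between -0.48 and 1.99.

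Knockdown was checked first by its target. HDAC6 had 11.8 to 13.6 CPM with the hairpins in replicates 1 and 2 against 47.8 to 54.6 CPM in shCtrl, and in replicate 3 it had 9.20 CPM (shHDAC6-1) and 11.6 CPM (shHDAC6-2) against 24.9 CPM in shCtrl.

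In replicates 1 and 2, 22 of the 34 neuronal genes were expressed in shCtrl, and the shares called with either hairpin were near those of all genes. With shHDAC6-1, 29 genes were tested, of which 4 were higher and 4 lower (edgeR, adjusted p below 0.05), where 15.3% of all 17702 genes were called higher and 15.2% lower. With shHDAC6-2, 5 were higher and 5 lower, against 14.4% and 13.2% of all genes. The median log2 fold change of the 29 was -0.14 with shHDAC6-1 and -0.11 with shHDAC6-2 (all genes -0.02 and 0.00). Scaled by library totals alone, the calls over all genes split into 1996 higher and 3418 lower with shHDAC6-1 and 1766 higher and 3167 lower with shHDAC6-2, and the neuronal genes into 4 higher and 7 lower with shHDAC6-1 and 5 higher and 5 lower with shHDAC6-2. Over all 9 knockdown libraries together, 0 neuronal genes were called with either hairpin, as given with the alternatives. Across all genes the log2 fold change had a rank correlation with GC content of -0.423 with shHDAC6-1 and -0.304 with shHDAC6-2. With GC and length trends removed, 5 neuronal genes were higher and 6 lower with shHDAC6-1, and 7 were higher and 5 lower with shHDAC6-2. Calls rose over all genes too. Genes at an unadjusted p below 0.05 (edgeR) then numbered 8216 of 16476 with shHDAC6-1 and 8219 with shHDAC6-2. In the main fit they numbered 7127 and 6745 of 17702. The 5 epithelial markers summed to 261 to 291 CPM with shHDAC6-1 and 268 to 288 CPM with shHDAC6-2, against 368 to 398 CPM with shCtrl. By class, 7 of the 34 genes were silent, 5 low and 22 expressed with shHDAC6-1, and 5 silent, 8 low and 21 expressed with shHDAC6-2, against 2 silent, 10 low and 22 expressed with shCtrl. The silent share of all symbols was 32.9% with shHDAC6-1, 32.3% with shHDAC6-2 and 31.2% with shCtrl.

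NEFL and NEFM, which encode neurofilament chains, rose with both hairpins, and NEFH, the heavy chain, was not called. NEFL, the light chain, had 134 and 138 CPM with shHDAC6-1 and 141 and 128 CPM with shHDAC6-2, against 83.1 and 82.6 CPM with shCtrl, and its log2 fold change was 0.80 ± 0.11 for both hairpins (adjusted p 1.49e-05 and 1.58e-05, edgeR). No hairpin library overlapped shCtrl. NEFM, the medium chain, had 125 and 115 CPM with shHDAC6-1 and 135 and 140.4 CPM with shHDAC6-2, against 65.2 and 72.8 CPM with shCtrl (0.88 ± 0.12 and 1.09 ± 0.12). ELAVL2, the RNA-binding protein HuB, had 25.4 and 24.6 CPM with shHDAC6-1 and 20.3 and 18.9 CPM with shHDAC6-2, against 13.1 and 10.8 CPM with shCtrl (1.15 ± 0.14 and 0.81 ± 0.14). SCN2A had 5.00 and 6.64 CPM with shHDAC6-1 and 4.64 and 5.45 CPM with shHDAC6-2, against 2.73 and 3.21 CPM with shCtrl (1.05 ± 0.21 and 0.86 ± 0.21). NCAM1 rose with shHDAC6-2, at 114 and 110.2 CPM against 81.6 and 97.7 CPM with shCtrl (0.41 ± 0.12, adjusted p 0.0123), but not without shCtrl replicate 1.

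SYP, MAP2 and ENO2, which were higher with Nexturastat A, were lower with both hairpins. SYP had 2.75 and 2.94 CPM with shHDAC6-1 and 3.01 and 3.49 CPM with shHDAC6-2, against 9.04 and 9.94 CPM with shCtrl (log2 fold change -1.66 ± 0.20 and -1.45 ± 0.19, adjusted p 1.45e-06 and 6.64e-06, edgeR). MAP2 had 3.73 and 4.503 CPM with shHDAC6-1 and 3.84 and 4.13 CPM with shHDAC6-2, against 9.95 and 8.33 CPM with shCtrl (-1.07 ± 0.19 and -1.10 ± 0.19). ENO2 had 70.8 and 71.6 CPM with shHDAC6-1 and 71.0 and 72.5 CPM with shHDAC6-2, against 102 and 107 CPM with shCtrl (-0.48 ± 0.11 and -0.45 ± 0.11), and with shHDAC6-1 it was not called without replicate 1 of that hairpin. DCX had 2 counts with shHDAC6-1 against 48 with shCtrl, a ratio of 0.0458 (95% counting interval 0.00539 to 0.175), and lost its call without shCtrl replicate 1 or shHDAC6-1 replicate 2. It passed the filter only through its level in the other groups, so its lower call, counted above, was in part fixed by the filter. With shHDAC6-2, GAP43 (2.49 and 2.48 CPM, against 5.10 and 4.17 CPM with shCtrl) and INA (2.85 and 3.49 CPM, against 5.10 and 5.79 CPM with shCtrl) fell. The GAP43 call was lost without shCtrl replicate 1, and the INA call without shCtrl replicate 2 or shHDAC6-2 replicate 1.

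REST rose with both hairpins in replicates 1 and 2. It had 84.5 and 78.2 CPM with shHDAC6-1 and 92.8 and 87.1 CPM with shHDAC6-2, against 57.9 and 54.2 CPM with shCtrl (log2 fold change 0.62 ± 0.12 and 0.78 ± 0.12, adjusted p 0.000323 and 2.61e-05, edgeR). RCOR1 was not called with either. Of 21 other REST targets tested, 0 were higher and 6 lower with shHDAC6-1 and 2 higher and 5 lower with shHDAC6-2, with median log2 fold changes of -0.50 and -0.20. CPLX1, which encodes the fusion regulator complexin, averaged 1.07 CPM with shHDAC6-1 and 1.54 CPM with shHDAC6-2, against 8.37 CPM with shCtrl. Of 14 paralogs, 6 were higher and 2 lower with shHDAC6-1, and 5 were higher and 3 lower with shHDAC6-2. Over all genes, 15.3% were called higher and 15.2% lower with shHDAC6-1, and 14.4% higher and 13.2% lower with shHDAC6-2. VAMP3, a widely expressed SNARE, averaged 146 CPM with shHDAC6-1 and 129 CPM with shHDAC6-2, against 67.0 CPM with shCtrl. Of 24 corepressor and regulator genes, 2 were higher and 6 lower with shHDAC6-1, and 5 were higher and 4 lower with shHDAC6-2, with RCOR2, a relative of RCOR1, lower with both (11.9 CPM with shHDAC6-1 and 13.2 CPM with shHDAC6-2, against 27.9 CPM with shCtrl).

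**Figure D4:**
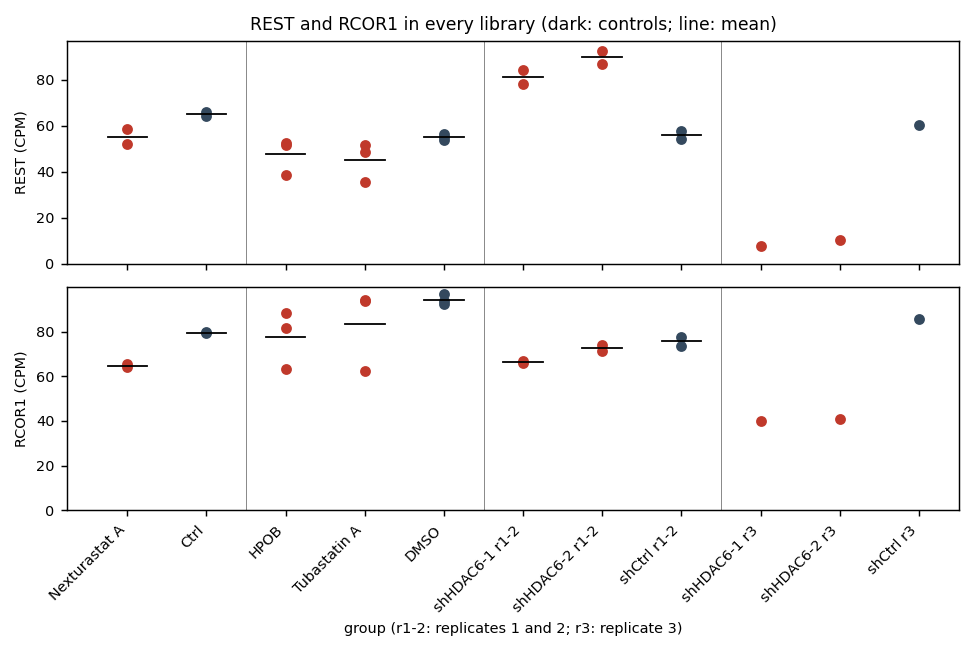
CPM of REST (top) and RCOR1 (bottom), with a point for each library, red for treated or hairpin groups, dark for controls, and a line at the mean of groups with more than 1 library. REST lies at 78.2 to 92.8 CPM with the hairpins in replicates 1 and 2 and at 7.70 and 10.4 CPM in replicate 3, where shCtrl has 60.2 CPM.

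Replicate 3 gave a different picture, with 1 library for each group and so no test. Of 17 neuronal genes at 1 CPM or more in either library, 9 were past 2-fold higher with shHDAC6-1 and 5 past 2-fold lower, where 22.4% of all 13558 such genes were higher and 38.1% lower. With shHDAC6-2, 19 were counted, 10 were higher and 5 lower, against 21.5% and 37.0% of all genes. L1CAM had 30.8 CPM with shHDAC6-1 and 18.3 CPM with shHDAC6-2, against 4.70 CPM with shCtrl. SYT7 had 5.61 CPM with shHDAC6-1 and 7.69 CPM with shHDAC6-2, against 0.663 CPM with shCtrl. MAPT had 45.7 CPM with shHDAC6-1 and 38.7 CPM with shHDAC6-2, against 14.4 CPM with shCtrl, and ENO2 had 265 CPM with shHDAC6-1 and 165.0 CPM with shHDAC6-2, against 89.4 CPM with shCtrl. MAP2 and SCG2, which Nexturastat A raised, were lower, MAP2 at 0.884 CPM with shHDAC6-1 and 0.985 CPM with shHDAC6-2, against 2.71 CPM with shCtrl, and SCG2 at 0.256 CPM with shHDAC6-1 and 0.373 CPM with shHDAC6-2, against 1.51 CPM with shCtrl.

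In these libraries the ratio moved with the base composition of the gene. Across all genes the log2 ratio had a rank correlation with GC content of 0.808 with shHDAC6-1 and 0.793 with shHDAC6-2, as a description across genes that share a library. The neuronal genes past 2-fold higher had GC contents of 48.24% to 60.05% with shHDAC6-1, and those past 2-fold lower 35.19% to 46.53%, with the same ranges for shHDAC6-2. REST, with 39.96% GC, had 7.70 CPM with shHDAC6-1 and 10.4 CPM with shHDAC6-2, against 60.2 CPM with shCtrl, and RCOR1, with 45.32% GC, had 39.9 and 40.7 CPM against 85.7 CPM. The part of base composition in these ratios was not tested.

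Some neuronal genes at 0 in shCtrl replicate 3 were present in the hairpin libraries of that replicate. UCHL1 had 8.79 CPM with shHDAC6-1 and 27.1 CPM with shHDAC6-2, at least 190-fold and 586-fold over a floor of 3 counts in shCtrl. NEFL had 1.07 and 4.97 CPM and NEFM 2.07 and 6.49 CPM with shHDAC6-1 and shHDAC6-2. The levels of UCHL1, NEFL and NEFM were 0.785% to 8.69% of those of the same hairpin in replicates 1 and 2. For NCAM1, GAP43, INA and ELAVL2, also at 0 in shCtrl replicate 3, this share was 0.465% to 9.57%. For SYT5, at 0 there too, it was higher, at 28.1% with shHDAC6-1 and 39.3% with shHDAC6-2. For CDKN2A, which is also at 0 in shCtrl replicate 3, the same share was 4.13% with shHDAC6-1 and 15.7% with shHDAC6-2, and for IRS4, a signalling adaptor at 0 there too, 1.29% and 3.38%. Whether the same source gave both was not tested.

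**Figure D5:**
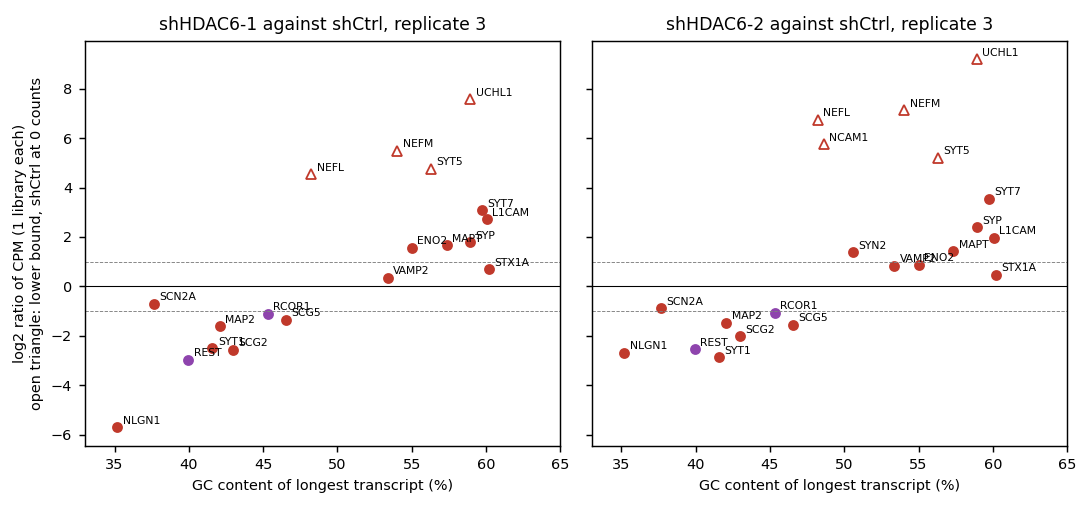
Log2 ratio of CPM in replicate 3, shHDAC6-1 (left) and shHDAC6-2 (right) over shCtrl, against the GC content of the longest transcript in percent, for the genes at 1 CPM or more, with REST and RCOR1 in purple, dashed lines at 2-fold, and open triangles for lower bounds where shCtrl had 0 counts. Points below the lower dashed line have 35.19% to 46.53% GC and those above the upper one 48.24% to 60.05%.

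The control libraries of the experiments differed from each other in these genes. Expressed members numbered 10 in DMSO, 22 in shCtrl replicates 1 and 2, 11 in shCtrl replicate 3 and 11 in Ctrl. The expressed shares of all symbols were, in the same order, 49.3%, 55.1%, 47.8% and 49.0%. DMSO against Ctrl, both labelled as the same line and vehicle at day 2, gave 6 higher and 9 lower of 29 neuronal genes tested, where 30.6% of all genes were called higher and 32.3% lower. The filter of this fit also covered shCtrl replicates 1 and 2, so some genes passed only through their level there. Of the 29, 8 had 0 counts in DMSO, in Ctrl or in both, so the shares called depend on that filter. L1CAM had 142, 139 and 140.0 CPM in DMSO, against 6.48 and 5.57 CPM in Ctrl (log2 fold change 4.53 ± 0.12, adjusted p 4.53e-16, edgeR). SCN2A had 2 counts in DMSO against 2255 in Ctrl, a ratio of 0.00102 (95% counting interval 0.000124 to 0.0037). MAPT averaged 2.59 CPM in DMSO and 34.5 CPM in Ctrl (-3.76 ± 0.18), NLGN1 1.39 CPM in DMSO and 10.2 CPM in Ctrl (-2.88 ± 0.20), and SCG5 4.74 CPM in DMSO and 0.831 CPM in Ctrl (2.50 ± 0.29). SYP, SNAP25, VAMP2 and UCHL1 were also called higher, UCHL1 on 6 counts in DMSO against 0 in Ctrl, and SYT1, SYT7, SYN2, STX1A, ENO2 and MAP2 lower. The UCHL1 call was lost with DESeq2 and without either Ctrl library or DMSO replicate 2. The SNAP25 call was lost without Ctrl replicate 1 or DMSO replicate 1 (adjusted p up to 0.166 by edgeR), and the ENO2 call without Ctrl replicate 1, DMSO replicate 1 or DMSO replicate 3 (up to 0.334). REST averaged 55.1 CPM in DMSO and 65.3 CPM in Ctrl (-0.25 ± 0.08, adjusted p 0.0109, and 0.0698 without Ctrl replicate 2).

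The shCtrl libraries of replicates 1 and 2 differed from Ctrl most. Of 29 neuronal genes tested, 16 were higher and 6 lower, where 41.5% of all genes were called higher and 34.9% lower, and the median log2 fold change was 1.99 over the 29 and 0.14 over all genes. UCHL1, NEFL, NEFM, INA and ELAVL2 had 0 counts in Ctrl. Genes that passed the filter only through their level in shCtrl, these 5 among them, had to differ. The counts and the median therefore describe the 29 and not the 34. The median was also 1.99 with genes at 0 in Ctrl set to their bounds. In these shCtrl libraries UCHL1 had 317 and 293 CPM and was at least 12330-fold higher over a floor of 3 counts in Ctrl, and NEFL, with 83.1 and 82.6 CPM, was at least 3361-fold higher. NCAM1 had 81.6 and 97.7 CPM in shCtrl replicates 1 and 2, against 0 and 0.0650 CPM in Ctrl. SCG2, by contrast, had 0.152 and 0.230 CPM in shCtrl, against 3.46 and 4.24 CPM in Ctrl (log2 fold change -4.47 ± 0.34, adjusted p 4.72e-10, edgeR). REST averaged 56.1 CPM in shCtrl and 65.3 CPM in Ctrl (-0.39 ± 0.09, adjusted p 0.000654), and RCOR1 75.7 CPM in shCtrl and 79.6 CPM in Ctrl (-0.24 ± 0.09, adjusted p 0.0161). The RCOR1 call was lost under library totals alone, under a filter at 1 CPM on average and without either Ctrl library, with adjusted p up to 0.458 by edgeR. Of 8 neuronal transcription factor genes tested, 7 were higher, where 41.5% of all genes were, among them POU4F1, which averaged 107 CPM in shCtrl and had 0 counts in Ctrl. Of these 8, 3 were at 0 in Ctrl and passed the filter only through their level in shCtrl. They had to differ, so the count describes the 8 and not the list of 10. In shCtrl replicate 3, also taken at day 0, UCHL1, NEFL and NEFM had 0 counts. That library correlated with Ctrl at 0.988 to 0.991 and with knockdown replicates 1 and 2 at 0.904 to 0.913. Experiment and stock cannot be told apart here, and the part of sampling day was not tested.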

How the data were processed

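RNA-seq counts of 22 libraries were analysed. The deposited files hold whole-number read counts for each gene symbol, which the authors made with Trim Galore 0.6.7, STAR 2.7.9a and featureCounts 2.0.3 on GRCh38, per the submitters' processing notes, which also name DESeq2 1.30.1. The annotation and the strand setting are not stated in those notes or labels.

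CPM were computed from library totals of 31238740 to 85942315 counts. Tests used edgeR 4.0.16 (R 4.3.3) with TMM factors, genes kept by filterByExpr (minimum count 10, total 15), a robust quasi-likelihood F test and Benjamini-Hochberg adjustment over all genes tested, called below 0.05. Separate fits covered Nexturastat A with Ctrl, HPOB and Tubastatin A with DMSO, the hairpins with shCtrl in replicates 1 and 2, the 5 compound groups together, and the control groups. Standard errors were derived from the fold change and its F statistic. Replicate 3 of the knockdown has 1 library a group, so folds past 2 among genes at 1 CPM or more in either library are counted with no test. The code was tested on simulated data. GC content is that of the longest transcript in GENCODE 29, where 23899 of 26485 symbols matched.

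Replicate numbers are shared between groups, but residuals of libraries with the same number correlated at -0.155 to 0.198, so the libraries were taken as unpaired. Alternatives covered DESeq2 1.42.0, scaling, filters, thresholds, the replicate block and each library left out. The removal of GC and length trends and of HPOB replicate 3 with Tubastatin A replicate 2 was chosen after seeing the data.

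Values per library are given for REST, RCOR1 and the neuronal genes that are called in at least 1 comparison and reach a mean of 1 CPM in either of its groups, with the others by class, count and range. Of each further list, at most the 3 called genes with the largest change per comparison are named, and paralogs beside their neuronal partner. Genes named outside these rules, such as those with a promoter site, were chosen after their values were seen. The members and lists were chosen with earlier results of these data known.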

Additional observations from a re-analysis of the deposited data

Results flagged for a closer look

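A test of the difference between inhibitor effects, each taken against its own control, separated Nexturastat A from HPOB in 8 neuronal genes and from Tubastatin A in 9 (edgeR quasi-likelihood test, Benjamini-Hochberg adjusted over 17083 genes). Differences are in log2 units, the Nexturastat A effect minus the other. Against HPOB they were 4.22 for L1CAM, 2.96 for SYP, 2.92 for SCG2, 2.88 for MAP2, 2.65 for SYT7, 1.302 for ENO2, -0.76 for STX1A and -3.67 for SCN2A. Against Tubastatin A they were 4.09 for L1CAM, 3.39 for SYP, 3.06 for SCG2, 3.005 for SYT7, 2.81 for SCN3A, 2.76 for MAP2, 2.61 for SYT11, 1.31 for ENO2 and -0.87 for STX1A. L1CAM, SCG2, MAP2 and ENO2 were called in both under all 18 alternatives run. The SCN2A difference rests on a gene with 2 counts in all 3 DMSO libraries and lost its call under 6 alternatives, and the SYT11 difference under 8. Ctrl and DMSO differ in many of these genes, L1CAM among them, and compound, dose and stock cannot be told apart.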

How the results depend on the processing

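Of the values recomputed for single genes under the alternatives, 1282 kept their direction and side of the threshold, 97 lost a call, 25 gained one and 8 changed sign. The causes were not tested. With each library left out in turn, neuronal genes called with Nexturastat A numbered 9 to 17 and all genes 1781 to 8922, all genes called with HPOB numbered 0 to 4, and all genes called with shHDAC6-1 in replicates 1 and 2 numbered 3160 to 5963. For the Nexturastat A effect minus the HPOB effect these ranges were 4 to 9 neuronal genes and 1603 to 3950 genes in all, and minus the Tubastatin A effect 1857 to 4262 genes in all. DESeq2 called 2 neuronal genes and 120 genes in all with HPOB and 23 in all with Tubastatin A. All genes called with HPOB numbered 14 with no filter on low counts, 20 without HPOB replicate 3 and Tubastatin A replicate 2, and 17 with GC and length trends removed, which gave 3 with Tubastatin A. With all 9 knockdown libraries in 1 fit, edgeR called 0 neuronal genes and 0 genes in all with either hairpin, with 0 neuronal genes at an unadjusted p below 0.05 and 191 genes in all for shHDAC6-1 and 219 for shHDAC6-2 (DESeq2 was not run on that fit). In that fit the log2 fold changes with shHDAC6-1 turned to 0.71 for ENO2, 0.35 for MAPT, 0.69 for STX1A and -0.0192 for REST, and with shHDAC6-2 to 0.24 for ENO2 and -0.29 for RCOR1. RCOR1 with shHDAC6-2 was also -0.0563 with library totals and -0.0940 with GC and length trends removed. With the replicate block, a pairing that the residuals do not bear out, 15 neuronal genes were called with Nexturastat A, 9 with shHDAC6-1 and 10 with shHDAC6-2, and 0 with HPOB or Tubastatin A, with 7 genes in all for HPOB. Library totals moved the median log2 fold change of all genes to 0.12 with Nexturastat A and to 0.31 for shCtrl replicates 1 and 2 against Ctrl.

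Class counts depend on their thresholds. With 0.05 and 0.5 CPM, silent genes numbered 5 in Nexturastat A, 4 in shHDAC6-1 replicates 1 and 2 and 7 in shHDAC6-1 replicate 3, and low genes 7 in shHDAC6-2 replicate 3. With 0.2 and 2 CPM, silent genes numbered 13 in Nexturastat A, 8 in shHDAC6-2 and 6 in shCtrl of replicates 1 and 2, and low genes 3 in Ctrl, 3 in shHDAC6-1 and 5 in shHDAC6-2 of replicates 1 and 2. TMM factors gave 7 silent genes in shHDAC6-1 replicate 3, and leaving out each shCtrl library gave 2 to 4 silent genes in shCtrl replicates 1 and 2. Depth limits the genes with few reads: 14 neuronal genes could not be tested with Nexturastat A.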
